A study of Mus musculus with 6 samples.

Results

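The Hox clusters are arrays of homeobox genes that set position along the head-to-tail axis of the embryo, and they also encode a small group of miRNAs. Described here are the guide arms of that group, miR-10a-5p, miR-10b-5p, miR-196a-5p, miR-196b-5p and miR-615-3p, which were taken by name from the count tables. They are 5 of the 1906 mature miRNAs listed for each library. Of the 5, 4 had at least 1 read in some library and 2, miR-10a-5p and miR-10b-5p, had enough reads to be tested.

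Small RNA was sequenced from cultured primary oligodendrocytes of C57BL/6N mice, which make myelin in the central nervous system, and from their extracellular vesicles (EVs). The cultures were started from embryonic day 14 animals in Sato medium containing 1% horse serum. The cells were then washed and kept without serum, in Sato with the B27 supplement, while vesicles accumulated over 24 h. Vesicles were pelleted by differential centrifugation, which also brings down other particles. There were 3 EV libraries (days 5 to 6 in vitro) and 3 libraries of whole cells (Cells, day 6). No library of medium alone was analysed here, and the labels do not say which part of the nervous system the cells came from. In bulk RNA, fewer cells that express a miRNA and less of it per cell cannot be told apart.

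A miRNA is cut from a hairpin as a 5p and a 3p arm, one of which usually acts as the guide that pairs with target mRNAs, mainly through the seed at bases 2 to 8. As background, miR-10 and miR-196 genes are transcribed together with their Hox neighbours and miR-196 represses several Hox mRNAs. The forebrain develops without Hox expression, whereas the hindbrain, spinal cord, trunk mesenchyme, gut and kidney express Hox genes and their miRNAs. Guides of this kind are therefore used as marks of position or of tissue outside the forebrain.

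The mature sequences show which members can be told apart and which miRNAs outside the Hox clusters they resemble. They are RefSeq sequences (GRCm38.p6), found for 5 of 5 members, written 5′ to 3′ with the seed in capitals:
miR-10a-5p: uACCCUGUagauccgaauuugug
miR-10b-5p: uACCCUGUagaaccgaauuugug
miR-196a-5p: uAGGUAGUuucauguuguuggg
miR-196b-5p: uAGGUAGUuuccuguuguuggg
miR-615-3p: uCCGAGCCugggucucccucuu
miR-100-5p (outside the Hox clusters): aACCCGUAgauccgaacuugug
miR-99a-5p (outside the Hox clusters): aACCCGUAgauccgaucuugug
let-7a-5p (outside the Hox clusters): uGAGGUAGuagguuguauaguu

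The miR-10 guides differed from each other by 1 base, U12A, and the miR-196 guides by 1 base, A12C (the base of the a form, its position from the 5′ end, then the base of the b form). Both changes lie outside the seed, so each pair shares its seed. No other mature miRNA among 1674 distinct RefSeq sequences had the seed ACCCUGU of miR-10, the seed AGGUAGU of miR-196 or the seed CCGAGCC of miR-615-3p. miR-10a-5p was 3 edits (substitutions, insertions or deletions) from miR-100-5p and 4 from miR-99a-5p. It shared the run GUAGAUCCGAA with miR-100-5p, starting at base 7 in the first and base 6 in the second. The miR-196 seed AGGUAGU occurs in let-7a-5p as well, shifted by 1 base, so that it starts at base 2 in miR-196 and base 3 in let-7a-5p. As a run anywhere in the sequence, AGGUAGU was held by 0.777% of the distinct mature miRNAs and ACCCUGU by 0.299%. How reads were divided between such close sequences was not stated in the sources at hand.

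All members lie within or beside Hox genes in RefSeq and GENCODE M21, both on GRCm38, a later build than the one used for the counts. Mir10a is at chr11:96317165-96317274 (plus strand), within the RefSeq span of Hoxb3 and next to Hoxb4. Mir10b is at chr2:74726070-74726137 (plus strand), in introns of Hoxd3 and Hoxd4. miR-196a-5p has 2 source genes with the same mature sequence, Mir196a-1 at chr11:96265164-96265265 (plus strand), between Hoxb13 and Hoxb9, and Mir196a-2 at chr15:102973350-102973434 (plus strand), between Hoxc10 and Hoxc9. Mir196b is at chr6:52230081-52230165 (minus strand), between Hoxa9 and Hoxa10, and overlaps an annotated exon of Hoxa9. Mir615 is at chr15:103014910-103015001 (plus strand), in an intron of Hoxc5. The members thus cover all Hox clusters, A to D.

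Total counts were 313766 to 689475 in the EV libraries and 126910 to 202358 in the cell libraries. In CPM, which is reads scaled to the same library total, a single read was worth 1.45 to 3.19 in EVs and 4.94 to 7.88 in Cells. As a limited check of the labelled cell type, all 5 oligodendrocyte lineage miRNAs listed (arms of miR-219a, miR-338 and miR-138) were present, with a summed CPM of 33557 to 36111 in EVs and of 33961 to 43435 in Cells. Their presence does not measure the purity of the cultures. Within the sum, miR-219a-5p and miR-138-5p had a higher mean in EVs (8310 and 10474 CPM) than in Cells (3473 and 4582 CPM). The other 3 had a lower mean in EVs.

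The miR-10 guides were present at a low level in all 6 libraries. miR-10a-5p, from the HoxB cluster, had 50, 16 and 58 reads in EVs replicates 1, 2 and 3, and 14, 4 and 10 reads in Cells replicates 1, 2 and 3. These were 116, 51.0 and 84.1 CPM in EVs and 89.6, 31.5 and 49.4 CPM in Cells. Replicate 2 was the lowest library in both groups, and the groups overlapped, since Cells replicate 1 lay above EVs replicates 2 and 3.

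miR-10b-5p, from the HoxD cluster, had 18, 14 and 53 reads in EVs replicates 1, 2 and 3, and 7, 3 and 7 reads in Cells replicates 1, 2 and 3. These were 41.8, 44.6 and 76.9 CPM in EVs and 44.8, 23.6 and 34.6 CPM in Cells. EVs replicate 3 was the highest library, while EVs replicates 1 and 2 lay just below Cells replicate 1. The mean of miR-10a-5p was 83.7 ± 32.5 CPM in EVs and 56.9 ± 29.8 CPM in Cells (mean ± SD, n = 3 each), and that of miR-10b-5p 54.4 ± 19.5 and 34.3 ± 10.6 CPM.

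The posterior guides miR-196a-5p and miR-196b-5p were at the limit of detection. miR-196a-5p had 1 read in Cells replicate 1 and 0 in the other 5 libraries. miR-196b-5p had 1 read in EVs replicate 1, 1 in Cells replicate 2 and 0 in the other 4. With reads pooled over a group, miR-196a-5p had 0 of 1434245 EV reads. There a limit of 3 reads is 2.09 CPM, and the upper bound of the 95% exact binomial interval is 2.57 CPM. The 1 read in 485457 cell reads gives 2.06 CPM (95% exact binomial interval 0.0522 to 11.5). For miR-196b-5p the pooled level was 0.697 CPM in EVs (0.0177 to 3.88) and 2.06 CPM in Cells (0.0522 to 11.5). These intervals and limits cover counting error only, since PCR copies are not independent molecules.

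miR-615-3p, from the HoxC cluster, had 0 reads in all 6 libraries. The limit of 3 reads was 2.09 CPM in the pooled EV libraries and 6.18 CPM in the pooled cell libraries. The upper bounds of the 95% exact binomial interval were 2.57 and 7.60 CPM. A level of 0 was common: 46.7% of the 1906 listed miRNAs had no read in any library. Expression under these limits was not detectable at this depth.

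**Figure D1:**
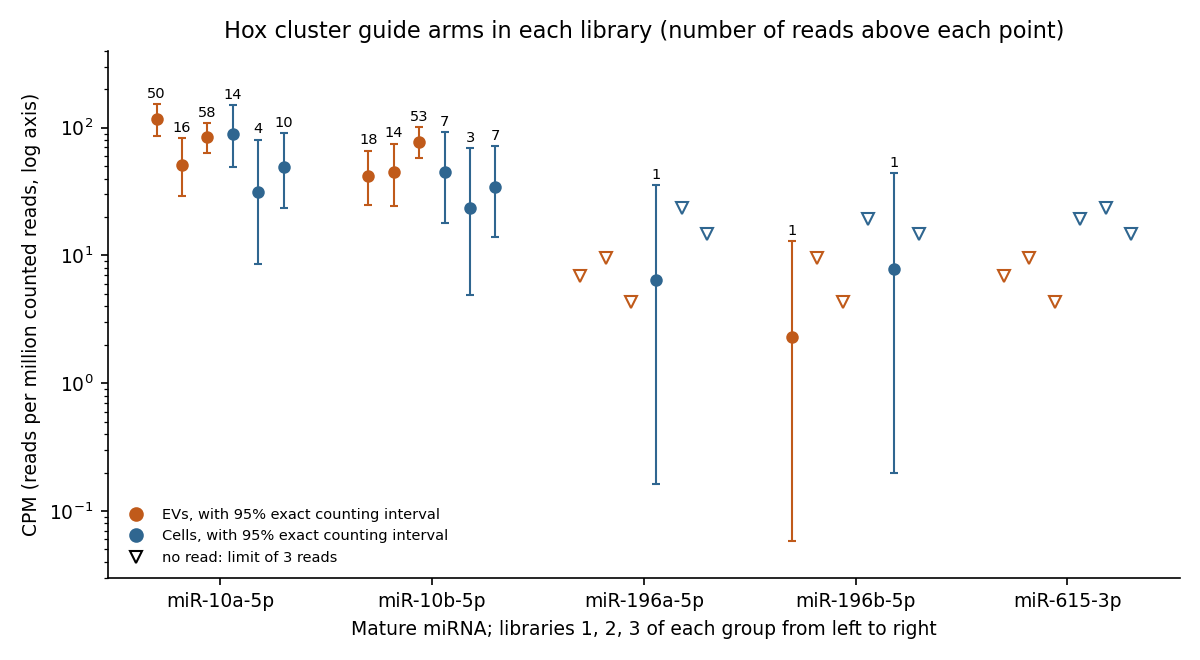
CPM of each member in each library on a log axis, with EVs in orange and Cells in blue, 95% exact binomial intervals of counting error and the number of reads above each point. Open triangles mark libraries with no read, drawn at the limit of 3 reads. The miR-10 guides lie between 23.6 and 116 CPM in all 6 libraries, while miR-196a-5p, miR-196b-5p and miR-615-3p have at most 1 read in any library.

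The order of the levels was miR-10a-5p, miR-10b-5p, the miR-196 guides and miR-615-3p. miR-10a-5p and miR-10b-5p stood at ranks 272 and 305 of 945 miRNAs with a read in EVs, and at ranks 286 and 326 of 753 in Cells. The step from miR-10b-5p to the miR-196 guides exceeded counting error in both groups, with pooled intervals of 47.3 to 73.3 CPM against an upper bound of 3.88 CPM in EVs, and of 20.4 to 56.1 against 11.5 CPM in Cells. The miR-196 guides and miR-615-3p did not differ beyond counting error. All 5 members together held 0.0139% ± 0.00375 of counted reads in EVs and 0.00960% ± 0.00403 in Cells (n = 3 each). This difference was smaller than the spread allows to be told from 0 (exact permutation p = 0.2, two-sided, where 3 against 3 cannot give less than 0.1).

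Within a library miR-10a-5p had more reads than miR-10b-5p in 6 of 6 libraries. Its share of the reads of both was 73.5% in EVs replicate 1 (95% exact binomial interval 61.4 to 83.5), 53.3% in EVs replicate 2 (34.3 to 71.7) and 52.3% in EVs replicate 3 (42.6 to 61.8). In Cells it was 66.7% (43.0 to 85.4), 57.1% (18.4 to 90.1) and 58.8% (32.9 to 81.6). EVs replicate 1 was the only library whose interval lay wholly above an even split. The log2 ratio of miR-10a-5p to miR-10b-5p, which does not depend on how libraries are scaled, was 0.59 ± 0.75 in EVs and 0.60 ± 0.31 in Cells (n = 3 each, pseudocount 0.5, exact permutation p = 1, two-sided).

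The other arms of the same hairpins were nearly absent. Of 6 such arms (miR-10a-3p, miR-10b-3p, miR-196a-1-3p, miR-196a-2-3p, miR-196b-3p and miR-615-5p), 4 had 0 reads in all libraries. miR-10a-3p had 1 read, in EVs replicate 3, against 152 reads of miR-10a-5p over all libraries. miR-196a-2-3p had 1 read, in EVs replicate 2. This arm comes from the HoxC copy of miR-196a, whereas the 1 read of miR-196a-5p cannot be assigned to the HoxB or the HoxC copy. None of these arms was kept for testing.

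The comparison of EVs with Cells asks whether the pellet and the cultured cells hold the Hox guides at different levels. Neither tested guide passed the test. miR-10a-5p had a log2 fold change (EVs over Cells) of 0.06 (SE 0.46, 95% interval -0.98 to 1.10, adjusted p = 0.929) and miR-10b-5p one of 0.19 (SE 0.45, 95% interval -0.82 to 1.20, adjusted p = 0.756) by edgeR's quasi-likelihood test with Benjamini-Hochberg (BH) adjustment. Of the members, 2 of 5 entered this test and 0 of those were called at an adjusted p below 0.05, with 0 at an unadjusted p below 0.05. Over all 336 miRNAs tested 57.4% were called, 28.6% higher and 28.9% lower in EVs. For both guides the EV libraries alone were enough to pass the filter on low counts.

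The intervals run from about a halving to just over a doubling, so a change within that range was not excluded by this test. With reads pooled over a group and no scaling beyond the totals, the share of reads was 1.499 times as high in EVs for miR-10a-5p (0.988 to 2.35, an exact binomial interval at 95% for counting error) and 1.69 times for miR-10b-5p (0.997 to 3.04). The CPM of the groups overlapped for both, whereas for 67.6% of the tested miRNAs they did not. DESeq2 and limma-voom also called 0 members. Of all 336 miRNAs, DESeq2 called 89 higher and 99 lower in EVs, and limma-voom 98 higher and 98 lower.

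Because the pair differs by 1 base, their reads were also summed and the whole table refitted. The sum had a log2 fold change of 0.10 (SE 0.38, 95% interval -0.74 to 0.94, edgeR BH-adjusted p = 0.849), in a fit that called 57.6% of 335 features. With library size as the only scaling it was 0.60 (edgeR BH-adjusted p = 0.174), while the median over all tested miRNAs moved from 0.06 to 0.54. The direction of the sum and of miR-10a-5p turned when single libraries were left out, from -0.16 without Cells replicate 2 to 0.55 without Cells replicate 1 for the sum, and from -0.27 without EVs replicate 1 to 0.59 without Cells replicate 1 for miR-10a-5p. The miR-196 guides summed to 1 read in EVs and 2 in Cells and were not kept by the filter. Their pooled share of reads in EVs was 0.169 times that in Cells (95% exact binomial interval 0.00287 to 3.25, counting error only).

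The relatives of miR-10 outside the Hox clusters were far more abundant than the miR-10 guides. miR-99a-5p, miR-99b-5p and miR-100-5p share the seed ACCCGUA, and miR-125a-5p and miR-125b-5p are made from the same primary transcripts as members of the miR-99 and miR-100 group. In EVs and Cells respectively, miR-99a-5p had a mean CPM of 10846 ± 768 and 14284 ± 1061, and miR-100-5p one of 3102 ± 261 and 8548 ± 614 (SD, n = 3 each). miR-99a-5p, miR-99b-5p and miR-100-5p together were 135 times as abundant as the miR-10 guides in EVs and 359.8 times in Cells, as ratios of group means.

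**Figure D2:**
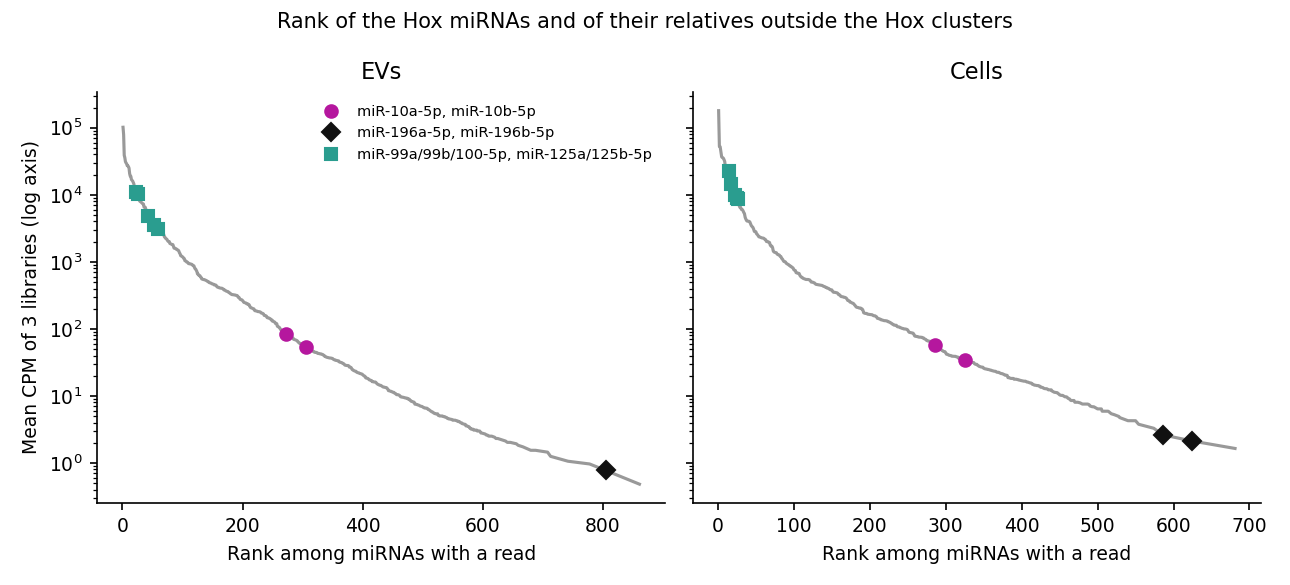
Mean CPM (log axis) of all miRNAs with a read, ordered by rank, in EVs (left) and Cells (right), with the miR-10 guides as circles, the miR-196 guides as diamonds and the relatives outside the Hox clusters as squares. The miR-10 guides lie at ranks 272 and 305 in EVs and 286 and 326 in Cells, far below miR-99a-5p at ranks 23 and 17, and the miR-196 guides lie in the tail.

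All 5 relatives were lower in EVs, with log2 fold changes of -0.86 (miR-99a-5p, SE 0.18), -1.54 (miR-99b-5p, SE 0.21), -1.94 (miR-100-5p, SE 0.20), -1.77 (miR-125a-5p, SE 0.35) and -1.53 (miR-125b-5p, SE 0.30), with adjusted p between 6.74e-05 and 0.003 by edgeR after BH adjustment. The CPM of the groups overlapped for miR-125a-5p and miR-125b-5p, since EVs replicate 2 (4130 and 12426 CPM) lay above Cells replicate 1 (4072 and 11659 CPM), and not for the other 3. The median log2 fold change of the 5 was -1.54, beside 0.06 over all miRNAs tested, of which 28.9% were called lower in EVs. With library size as the only scaling all 5 were still called lower, miR-99a-5p by the smallest margin (-0.40, edgeR BH-adjusted p = 0.0416). In that setting 60 of all 336 miRNAs were called lower. The difference between the miR-10 guides and these relatives was compared within libraries. The log2 ratio of the miR-10 reads to the reads of miR-99a-5p, miR-99b-5p and miR-100-5p was -6.76, -7.69 and -6.86 in EVs replicates 1, 2 and 3 and -7.96, -9.01 and -8.60 in Cells replicates 1, 2 and 3. The EV and cell libraries did not overlap, and the ratio was 1.42 higher in EVs on the log2 scale (exact permutation p = 0.1, two-sided, the smallest that 3 against 3 allows, BH-adjusted 0.1 over 5 such ratios). The ratio was chosen with the lower level of these relatives in EVs known. It therefore describes that difference and is no separate test of it.

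**Figure D3:**
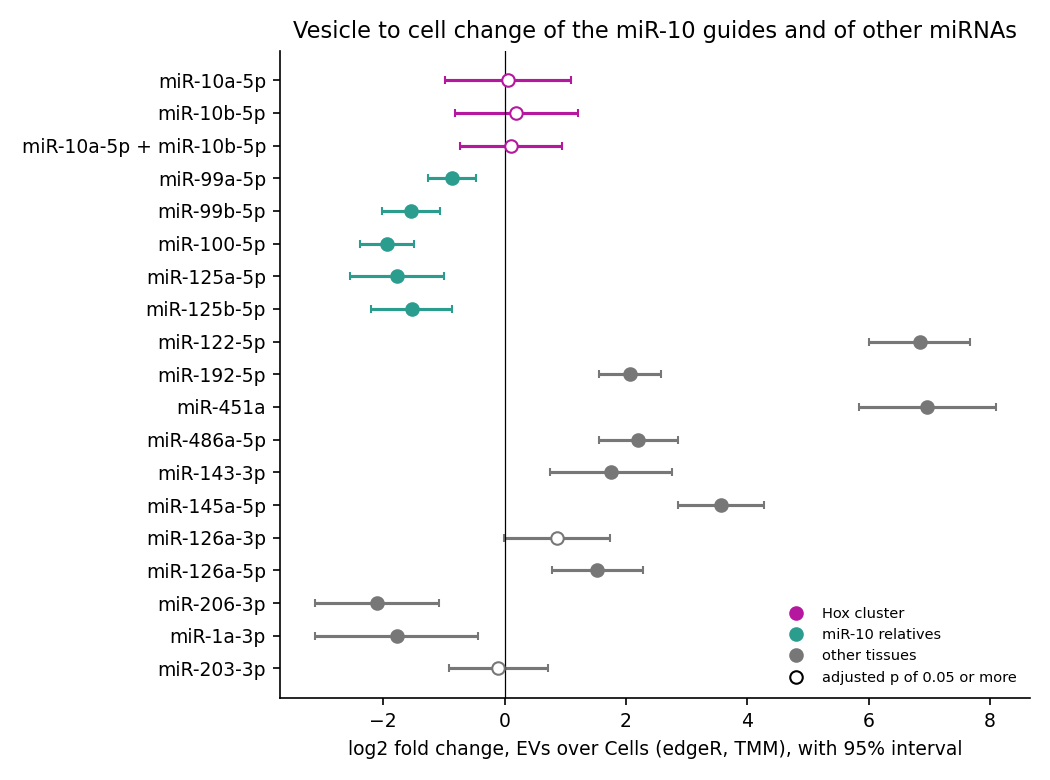
Log2 fold change of EVs over Cells (edgeR with trimmed-mean scaling) with 95% intervals, for the miR-10 guides and their sum, their relatives outside the Hox clusters and miRNAs of other tissues. Filled points have an adjusted p below 0.05. The miR-10 guides lie at 0.06 and 0.19 with intervals across 0, and the relatives at -1.94 to -0.86.

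Hox guides are one mark of tissue outside the forebrain, and their levels can be set beside those of miRNAs of other tissues. miR-122-5p of hepatocytes had a mean of 38.9 ± 12.4 CPM in Cells, beside 34.3 CPM for miR-10b-5p, but of 6074 ± 2085 CPM in EVs. miR-451a, found in red blood cells, stood at 27.6 ± 23.9 CPM in Cells and 4368 ± 1572 in EVs, and miR-145a-5p of smooth muscle and mesenchyme at 24.2 ± 8.14 and 410 ± 55.2 CPM (n = 3 each). The 2 miR-10 guides summed had a mean of 138 ± 36.9 CPM in EVs and 91.2 ± 40.1 CPM in Cells. In each cell library this sum was at or above each of these 3 miRNAs, and in each EV library it was below. Taken singly the guides were not always above them: Cells replicate 2 had 4 reads of miR-10a-5p and 3 of miR-10b-5p where miR-122-5p had 6 and miR-451a had 7. The log2 ratio of the summed miR-10 reads to miR-122-5p was 0.21 to 1.67 in Cells and -5.68 to -5.17 in EVs. Against miR-451a the ratio was 0 to 3.10 in Cells and -5.46 to -4.14 in EVs, and against miR-145a-5p it was 1.58 to 1.97 and -1.84 to -1.43.

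Other abundant members of the same lists lay above the summed miR-10 guides by group mean in Cells as well as in EVs. miR-192-5p of the liver list had 2343 ± 441 CPM in EVs and 399.8 ± 86.1 CPM in Cells, and miR-486a-5p of the blood list 1321 ± 374 and 205 ± 35.5 CPM. miR-143-3p of the mural and mesenchymal list had 2785 ± 1177 and 569 ± 346 CPM (SD, n = 3 each). Their log2 fold changes were 2.07, 2.20 and 1.76, with adjusted p of 9.46e-05, 0.000279 and 0.00892 by edgeR after BH adjustment. Not every tested member of the liver and blood lists rose. miR-194-5p of the liver list had a log2 fold change of -0.60 (186 ± 28.8 CPM in EVs, 209 ± 71.8 CPM in Cells, edgeR BH-adjusted p = 0.0716). miR-223-3p of the blood list had one of -1.01 (54.5 ± 22.5 and 77.5 ± 66.0 CPM, edgeR BH-adjusted p = 0.125). Of the endothelial list, miR-126a-5p rose by 1.53 on the log2 scale (139 ± 30.5 CPM in EVs, 34.4 ± 4.49 CPM in Cells, edgeR BH-adjusted p = 0.00391) and miR-126a-3p had a log2 fold change of 0.86 (107 ± 37.3 and 41.4 ± 11.7 CPM, edgeR BH-adjusted p = 0.084). The latter passed the test with library size as the only scaling (edgeR BH-adjusted p = 0.0176) and without EVs replicate 2 (0.0417).

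The direction was the opposite against miR-206-3p, a miRNA of skeletal muscle, a tissue of trunk and limb. Its mean CPM was 265 ± 180 in EVs and 810 ± 286 in Cells (SD, n = 3 each), and the log2 ratio of the miR-10 reads to it was -1.53 to -0.34 in EVs and -3.39 to -2.92 in Cells. For each of these 4 references the groups did not overlap and the exact permutation p was 0.1 (two-sided, BH-adjusted 0.1). The references were chosen with their own changes known, so the ratios describe where the miR-10 guides lie between them. By edgeR's quasi-likelihood test, the log2 fold changes of the references were 6.84, 6.97, 3.57 and -2.11 for miR-122-5p, miR-451a, miR-145a-5p and miR-206-3p. The summed level of the mural and mesenchymal list (miR-143-3p, miR-145a-5p, miR-199a-3p and miR-214-3p), tissue that also expresses Hox genes, ranged over 2473 to 4807 CPM in the EV libraries and 362 to 1037 CPM in the cell libraries, with 0 of its 4 members at 0 reads in all libraries. Its part in the level of the miR-10 guides was not tested. Of the epithelial list, miR-203-3p was the only member tested in the main fit (78.7 ± 29.6 CPM in EVs, 62.1 ± 10.0 CPM in Cells, log2 fold change -0.10, edgeR BH-adjusted p = 0.851), and the next most abundant was miR-200c-3p (6.09 ± 1.33 and 14.0 ± 5.71 CPM). miR-200a-3p was higher in EVs without overlap (17.4 ± 5.32 and 2.13 ± 3.70 CPM, 1 read in Cells). It was called with a filter of 10 CPM in 3 libraries (log2 fold change 2.53, edgeR BH-adjusted p = 0.0458) and not without a filter (0.0739). By mean, miR-205-5p and miR-141-3p were higher in EVs and miR-200b-3p and miR-429-3p lower, all with overlapping groups. Of the striated muscle list the next after miR-206-3p was miR-1a-3p (23.5 ± 21.7 CPM in EVs, 65.2 ± 17.0 CPM in Cells, log2 fold change -1.78, edgeR BH-adjusted p = 0.0291). That call was lost with library size as the only scaling (edgeR BH-adjusted p = 0.0842) and when 1 library was left out, either Cells replicate 1 (0.0954), Cells replicate 2 (0.0511) or EVs replicate 1 (0.0609). The remaining member of that list, miR-133a-3p, was not kept in the main fit, and its groups overlapped (31.6 ± 1.04 CPM in EVs, 47.3 ± 28.1 CPM in Cells). In Cells, miR-1a-3p and miR-133a-3p both lay far below miR-206-3p.

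**Figure D4:**
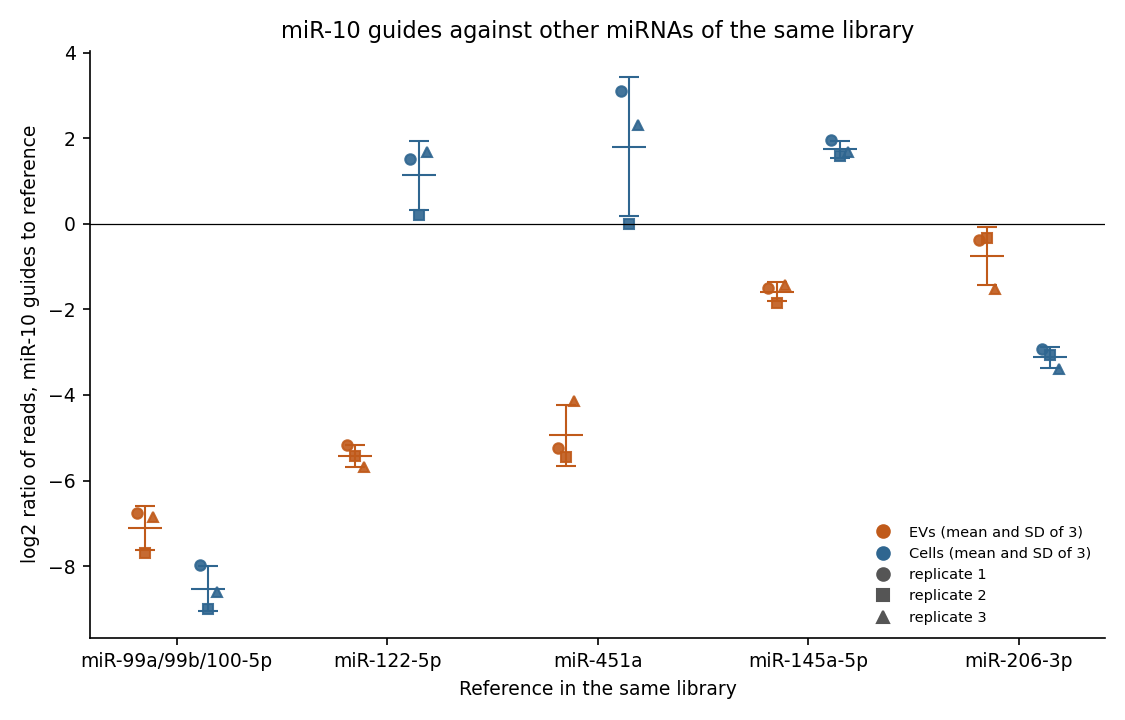
Log2 ratio of the summed miR-10a-5p and miR-10b-5p reads to the reads of 5 references in the same library, with EVs in orange, Cells in blue, one symbol per replicate, and bars for the mean and SD of 3 libraries. The groups do not overlap for any of the 5 references, with EVs higher against miR-99a-5p, miR-99b-5p and miR-100-5p and against miR-206-3p, and lower against the other 3.

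The miRNAs with the most similar profile over the 6 libraries were sought among the 336 tested, by Pearson's r of log2 CPM. For miR-10a-5p they were miR-28a-3p (r = 0.920), miR-125b-2-3p (0.918) and miR-34c-5p (0.898). For miR-10b-5p they were miR-676-3p (0.965), miR-99b-3p (0.933) and miR-325-5p (0.891). The 2 guides correlated with each other at 0.655. These values are descriptions over 6 libraries that share depth and group, and with as few as 3 reads behind a point they are imprecise.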

How the data were processed

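Each sample has 1 deposited table of raw counts, the number of reads assigned to each mature miRNA. The submitters' processing notes name the mouse build NCBIM37 (mm9), the aligner Bowtie (0.12.8), the counter featureCounts (1.4.6-p4), and, for read preparation, cutadapt (1.7.1) and bcl2fastq (1.8.4). Their settings, the handling of reads with several matches, and the use of strand and of random adapter bases were not stated in the sources at hand. Group and replicate number were read from the labels. Separate cultures are not stated there, so p-values cover the spread of these samples only, which may be technical.

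All miRNAs were fitted with edgeR 4.0.16 (R 4.3.3; glmQLFit and glmQLFTest, two-sided, group as the only term) after filterByExpr (minimum count 10) and trimmed mean of M-values (TMM) scaling, which corrects totals for differences in composition. P-values were adjusted over the 336 miRNAs kept, and the pipeline was tested on simulated data. CPM carry no TMM factor. Standard errors came from the coefficient and the F statistic. Replicates differed by more than sampling noise (chi-square over degrees of freedom 7.73 to 37.5 within groups), and each counted as 1 sample. Deviations from the group mean correlated between EV and cell libraries of the same number (r = 0.115, 0.106 and 0.256 over 336 miRNAs, against -0.148 to 0.021 for other pairs), so the numbers were taken as pairs in an alternative fit. Named were the 5 members, the other arms of their hairpins, the miR-10 relatives, the 2 most abundant of each tissue list, and the 3 most alike miRNAs. let-7a-5p was added for its sequence, and further members of the tissue lists were added where they differed from those named. The members, lists and references were chosen with earlier results of these data known. Alternatives covered scaling, filter, tool (DESeq2 1.42.0, limma-voom 3.58.1), pairing, depth, composition and each library left out.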

Additional observations from a re-analysis of the deposited data

How the results depend on the processing

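No alternative called any member: the number of Hox miRNAs called was 0 in each of 16 settings. The sign of their small log2 fold changes was not fixed. For miR-10a-5p it was -0.037 with upper-quartile scaling, -0.0005 with DESeq2, -0.027 without miR-9-5p, and -0.27 to 0.59 with each library left out. For miR-10b-5p it was -0.014 to 0.48 with a cell library left out; without an EV library it was not kept by the filter. For their sum the leave-one-out range was -0.16 to 0.55. Blocking on replicate number gave 0.08, 0.18 and 0.14 for miR-10a-5p, miR-10b-5p and the sum, and it changed no call given here. After thinning to 126910 reads a library, neither guide was kept, so no member could be called there, and the sum stood at 0.43. The difference in the log2 ratio of miR-10a-5p to miR-10b-5p (EVs minus Cells) was -0.012, turned to 0.015 with a pseudocount of 1, and was -0.44 to 0.22 with each library left out. The difference in the share held by the 5 members was 0.0043 percentage points, fell to 0.000066 on TMM-scaled totals, and was 0.0026 to 0.0065 with each library left out. The 5 relatives were called lower in all 16 settings. For miR-203-3p the log2 fold change turned to 0.38 with library size only and 0.043 without a filter, and was -0.30 to 0.019 with each library left out, called in none. The summed miR-196 guides were kept in 1 of 17 settings, the one without a filter, where they were not called (log2 fold change -2.34 from 3 reads, edgeR BH-adjusted p = 0.403). Depth limits the members: 45 reads of the miR-10 guides stand behind the cell values. The ratios of the miR-10 guides to 5 references were added after seeing the data; with each library left out, the difference for miR-99a-5p, miR-99b-5p and miR-100-5p was 1.18 to 1.72, and each of the other 4 kept its direction.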
